A study of Mus musculus with 3 samples.

Results

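The dendritic-like nuclei described here were 99 of the 28336 nuclei kept from the livers of 3 mice. They were chosen by their own transcripts in single-nucleus RNA sequencing (sNuc-Seq), in which each transcript is counted once as a unique molecular identifier (UMI). A nucleus was taken when it held at least 1 UMI of Flt3 and at least 1 UMI of Zbtb46, Clec9a, Xcr1, Cd209a, Siglech, Batf3 or Ccr7. It could hold no UMI of the Kupffer cell genes Clec4f and Timd4, and at most 1 of the genes Stab2, Ptprb, Kdr, Reln, Dcn and Skap1, which mark endothelial, stellate and T cells. Of the 99 nuclei, 10 came from the mouse on a normal diet (ND), 58 from STZ-HFHC mouse 1 and 31 from STZ-HFHC mouse 2. All mice were male C57BL/6 J. The STZ-HFHC mice had received 0.2 mg of streptozocin (STZ), which destroys pancreatic islets, at 3 days of age. From 4 weeks of age their diet was high in fat and cholesterol (HFHC, 41 kcal% from fat, 43 kcal% from carbohydrate), as a model of metabolic dysfunction-associated steatohepatitis with fibrosis. There was 1 library per mouse, so ND had no replicate, and the labels give STZ for the STZ-HFHC mice alone, so that STZ and diet cannot be told apart. The ND label also carries a library code that begins differently from those of both STZ-HFHC libraries, and the meaning of these codes is not given in the sources used here. The libraries held 42715797, 44350401 and 55632923 UMIs in kept nuclei, in the order ND, STZ-HFHC 1 and STZ-HFHC 2, with medians of 4068, 3015 and 4027 UMIs per nucleus.

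Dendritic cells take up antigen and present it to T cells on MHC class II and class I molecules. Their precursors depend on Flt3, a receptor tyrosine kinase, and its ligand. Conventional cells of the cDC1 kind, which need the transcription factors Irf8 and Batf3 and carry Xcr1 and Clec9a, are known for cross-presentation to cytotoxic T cells. Conventional cells of the cDC2 kind present mainly to helper T cells, and in mice many carry Cd209a and Clec10a. Plasmacytoid dendritic cells depend on the transcription factor Tcf4, carry Siglech and are known for type I interferon. After activation, conventional cells take on a mature state with Ccr7, the receptor that guides them to lymph nodes, and with the actin-bundling protein fascin (Fscn1).

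The selection rested on few molecules, and its genes are given as a description only. In the annotation of GRCm38 (mm10), the build of these counts, Flt3 lies on the minus strand of chromosome 5, chr5:147330741-147400489. Its UMIs numbered 11 in ND, 85 in STZ-HFHC mouse 1 and 35 in mouse 2. Most of the nuclei, 80 of 99, held 1 Flt3 UMI, and the most in a nucleus was 6. Among the partner genes, Zbtb46 was found in 55 nuclei, Clec9a in 29, Siglech in 20, Batf3 in 15, Xcr1 and Cd209a in 9 each and Ccr7 in 6. Zbtb46, a transcription factor of conventional dendritic cells, thus carried much of the selection. It was also widely detected outside it, in 5441 of the 28336 kept nuclei, 1632 of them from ND, and Clec9a was detected in 2394. In the hepatocyte background nuclei described below, Zbtb46 was detected in 10.7% and Clec9a in 3.23%. A sole partner gene was present in 62 nuclei, and 53 nuclei were taken on 1 Flt3 UMI and 1 partner gene. Just outside the selection were 92 nuclei with Flt3 and no partner gene and 47 nuclei with 2 of the endothelial, stellate and T cell genes, all of which met the other conditions. Just inside it, 62 nuclei held 1 of those genes, most often Stab2, which was present in 37. Ptprc, the gene of the leukocyte antigen CD45, played no part in the selection and was detected in 68 of the 99 nuclei (68.7%). Over all kept nuclei, at greater median depths in each library, it was detected in 8851 (31.2%), or 12.8% in ND and 45.4% and 34.0% in the STZ-HFHC mice 1 and 2.

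The dendritic-like nuclei had median depths of 2589.5 UMIs in ND, 2319.5 in STZ-HFHC mouse 1 and 1945 in mouse 2. No barcode of these nuclei occurred in another library as a member. Doublets were scored and left in, and 0, 6 and 3 of the nuclei were among the 8% with the highest scores of their library. The summed level of 12 hepatocyte genes was 26679 CPM (UMIs scaled to a total of 1000000) in ND nuclei, then 12279 and 16989 CPM in those of the STZ-HFHC mice 1 and 2, led by Cps1, an enzyme of the urea cycle. In hepatocyte background nuclei, which held at least 3 of 5 hepatocyte genes, Apob and Cps1 among them, and none of Ptprc, the Kupffer cell genes or the endothelial, stellate and T cell genes, the level was 29750, 17555 and 21162 CPM.

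When all nuclei were clustered without the genes of the selection, 77 of the 99 dendritic-like nuclei (77.8%) fell into 2 of 23 clusters. A cluster of 1750 nuclei led by F13a1, Gpr141 and St18, called the myeloid cluster here, held 64. A cluster of 253 nuclei led by Pacsin1, Cacna1e, Siglech, Bcl11a and Runx2 held 13, and the other 22 were spread over 11 clusters. A second clustering divided the myeloid cluster into 8 subclusters and placed 57 of its 64 dendritic-like nuclei in 3 small ones. The first, led by Itgae and Xcr1 and called the Itgae subcluster, had 153 nuclei, of which 28 were dendritic-like. Next was the Klrb1b subcluster, led by Klrb1b, Ctnnd2, Dscam, Cd209a and Clec10a, with 22 of 199. The last, led by Il12b, Slc4a8, Fscn1 and Cacnb3 and called the Il12b subcluster, had 7 of 47. The other 5 subclusters of the myeloid cluster, with 1351 nuclei, held 7 in all.

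The places of the nuclei followed the partner gene they had been chosen by. Of 23 nuclei with Clec9a or Xcr1 and no partner gene of another subset, 16 lay in the Itgae subcluster. All 6 with Cd209a in place of these genes lay in the Klrb1b subcluster, and 9 of 13 with Siglech lay in the Pacsin1 cluster. Of 6 with Ccr7, 3 lay in the Il12b subcluster. The 42 nuclei with only Zbtb46 or Batf3 were divided, with 10 in the Itgae subcluster, 14 in the Klrb1b subcluster, 3 in the Il12b subcluster, 4 in other myeloid subclusters and 11 elsewhere. A further 9 nuclei, all from STZ-HFHC 1, held partner genes of more than 1 subset. The clustering had not used the partner genes, but its other genes come from the same nuclei, so these counts are a description.

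**Figure D1:**
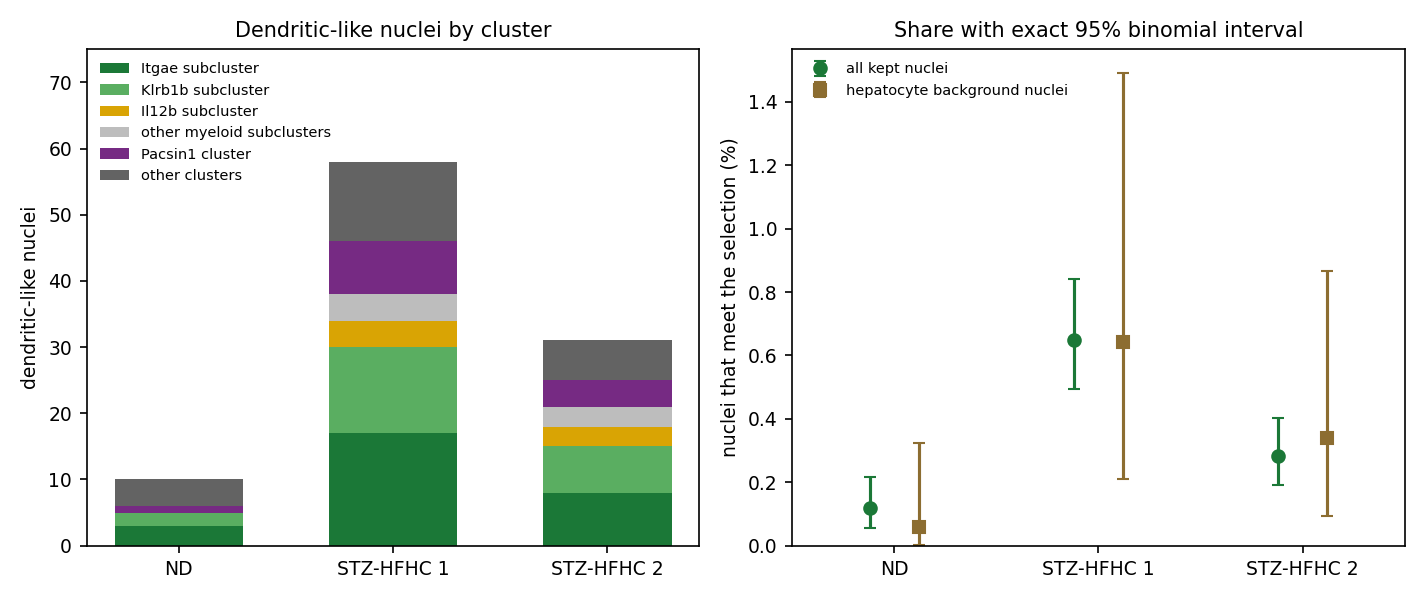
The left panel shows dendritic-like nuclei in each library, with bars stacked by the cluster or subcluster the nuclei fell into: 10 in ND, 58 in STZ-HFHC mouse 1 and 31 in mouse 2. The right panel shows the share of nuclei that met the selection, in percent with the exact 95% binomial interval, for all kept nuclei (circles) and for hepatocyte background nuclei (squares), whose intervals overlap in every library.

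The share of kept nuclei that met the selection was 0.118% in ND (exact 95% binomial interval 0.0565 to 0.216%), 0.650% in STZ-HFHC 1 (0.494 to 0.840%) and 0.284% in STZ-HFHC 2 (0.193 to 0.403%). Both STZ-HFHC mice were above the ND mouse, by 5.52 times (counting interval 2.8 to 12.1) and 2.41 times (1.15 to 5.51), with a mean of 3.97 ± 2.20 (SD, n = 2). No test was made between the groups, since ND had 1 mouse, and the intervals cover counting error only. Among hepatocyte background nuclei, the selection was met by 1 of 1726 in ND (0.0579%), 5 of 779 in STZ-HFHC mouse 1 (0.642%) and 4 of 1179 in mouse 2 (0.339%), at median depths of 3330, 4303 and 4554 UMIs. Of those 10 background nuclei, 6 lay in the 3 small myeloid subclusters and 4 outside both leading clusters, so the background itself held some of the members. How much of the difference in share between the mice is background cannot be told from these values, and no difference between the mice is read from them. With each nucleus thinned to 1000 UMIs, the share was 2 of 7907 in ND (0.0253%), 19 of 8132 in STZ-HFHC mouse 1 (0.234%) and 13 of 10276 in mouse 2 (0.127%). The thinned background was 0 of 1636, which allows a share of up to 0.183%, 2 of 676 (0.296%) and 0 of 1067, which allows up to 0.281%. Thinning left out 587, 789 and 645 nuclei with fewer UMIs.

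Within the dendritic-like nuclei, the levels of the gene lists differed by cluster. The plot of lists by cluster shows that the cDC1 list reached 9080 CPM in nuclei of the Itgae subcluster (exact 95% Poisson interval 8436 to 9761), against 1823 CPM in the Klrb1b subcluster (1454 to 2256). The plasmacytoid list reached 10462 CPM in the Pacsin1 cluster (9374 to 11640), against 2162 CPM in the Itgae subcluster and 3341 CPM in the Klrb1b subcluster. Nuclei of the other myeloid subclusters, at 8506 CPM, were high in the plasmacytoid list as well, through Zeb2, a gene that monocytes also carry and that gave 80 of their 132 UMIs of the list. The MHC class II list was highest in the Klrb1b subcluster, at 3016 CPM (2535 to 3561), and was 1569 CPM in the Itgae subcluster and 310 CPM in the Pacsin1 cluster. For the mature dendritic cell list, nuclei of the Il12b subcluster stood at 2963 CPM (2145 to 3992) and those of the Pacsin1 cluster at 31 CPM. These are levels of the nuclei that were clustered, and no test was made of them. In hepatocyte background nuclei the cDC1 list stood at 814 CPM, led by Cadm1, and the plasmacytoid list at 1448 CPM, led by Cobll1.

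**Figure D2:**
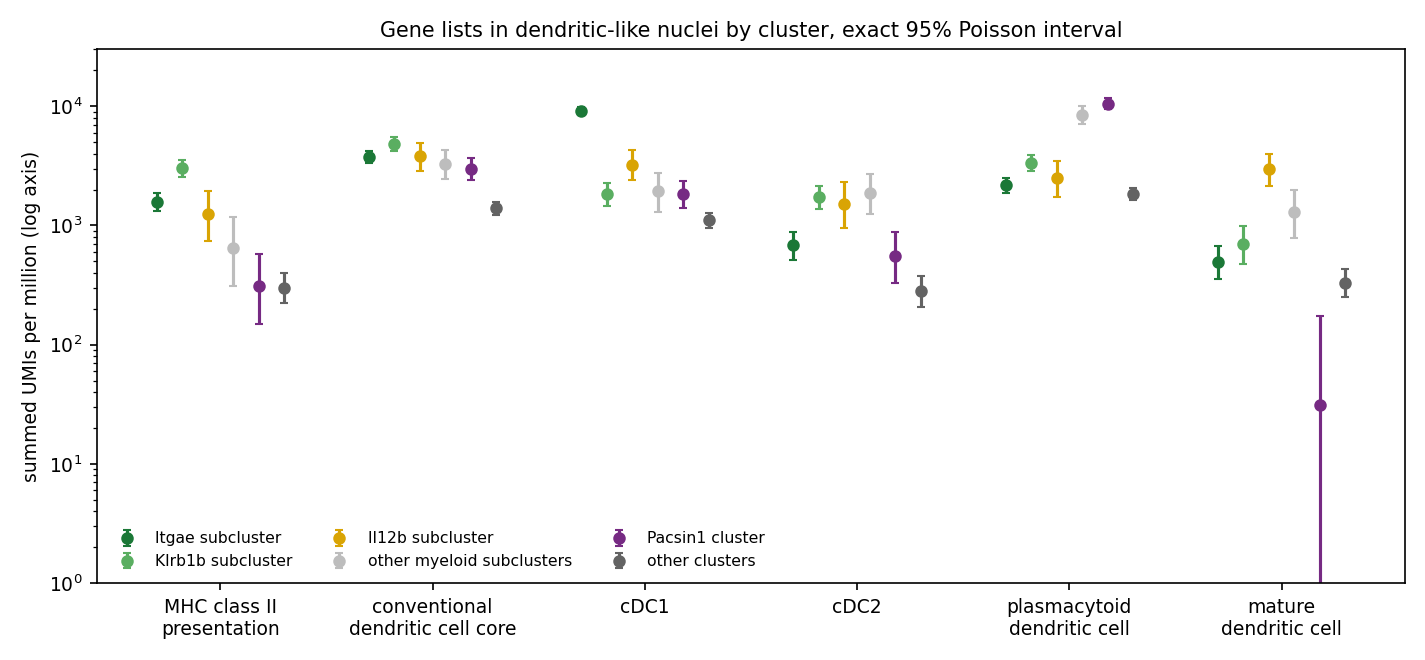
Summed CPM of 6 gene lists (log axis) in dendritic-like nuclei by cluster or subcluster, over the 3 libraries, with exact 95% Poisson intervals. The cDC1 list is highest in the Itgae subcluster (9080 CPM), the plasmacytoid list in the Pacsin1 cluster (10462 CPM) and the mature list in the Il12b subcluster (2963 CPM); the interval of the single mature-list UMI in the Pacsin1 cluster runs below the axis.

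Wdfy4, which cDC1 cells need for cross-presentation, gave 313 UMIs in the dendritic-like nuclei, 251 of them in the Itgae subcluster. Its level in that subcluster was 2514 CPM in ND, 3384 CPM in STZ-HFHC mouse 1 and 2599 CPM in mouse 2, and in the Klrb1b subcluster it was 486, 628 and 852 CPM. The ND levels rest on 13 UMIs in 3 nuclei of the Itgae subcluster and 2 UMIs in 2 nuclei of the Klrb1b subcluster. The order of these subclusters was the same in each mouse. The mice were clustered together and Wdfy4 was not left out of the clustering, so this order is a description. Irf8 was divided between the Itgae subcluster, with 49 UMIs, and the Pacsin1 cluster, with 20, and gave 4 in the Klrb1b subcluster. Of the genes expressed by cDC1 cells, Clnk, an adaptor protein, gave all of its 19 UMIs in the Itgae subcluster, and Ppt1, a lysosomal thioesterase, gave 43 of 50 there. Tcf4 gave 155 UMIs in the 13 nuclei of the Pacsin1 cluster, which was 7825 CPM in ND (1 nucleus), 5042 CPM in STZ-HFHC mouse 1 and 4417 CPM in mouse 2. Its level in the Itgae subcluster was 387, 478 and 724 CPM in the same order. Runx2, a transcription factor of plasmacytoid cells, followed with 91 of 157 UMIs in the Pacsin1 cluster. Il12b, a subunit of the cytokines IL-12 and IL-23, gave all 7 of its UMIs in the Il12b subcluster, 6 from STZ-HFHC 1 and 1 from STZ-HFHC 2. Fscn1 gave 6 UMIs there, 5 in the other clusters and none elsewhere.

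**Figure D3:**
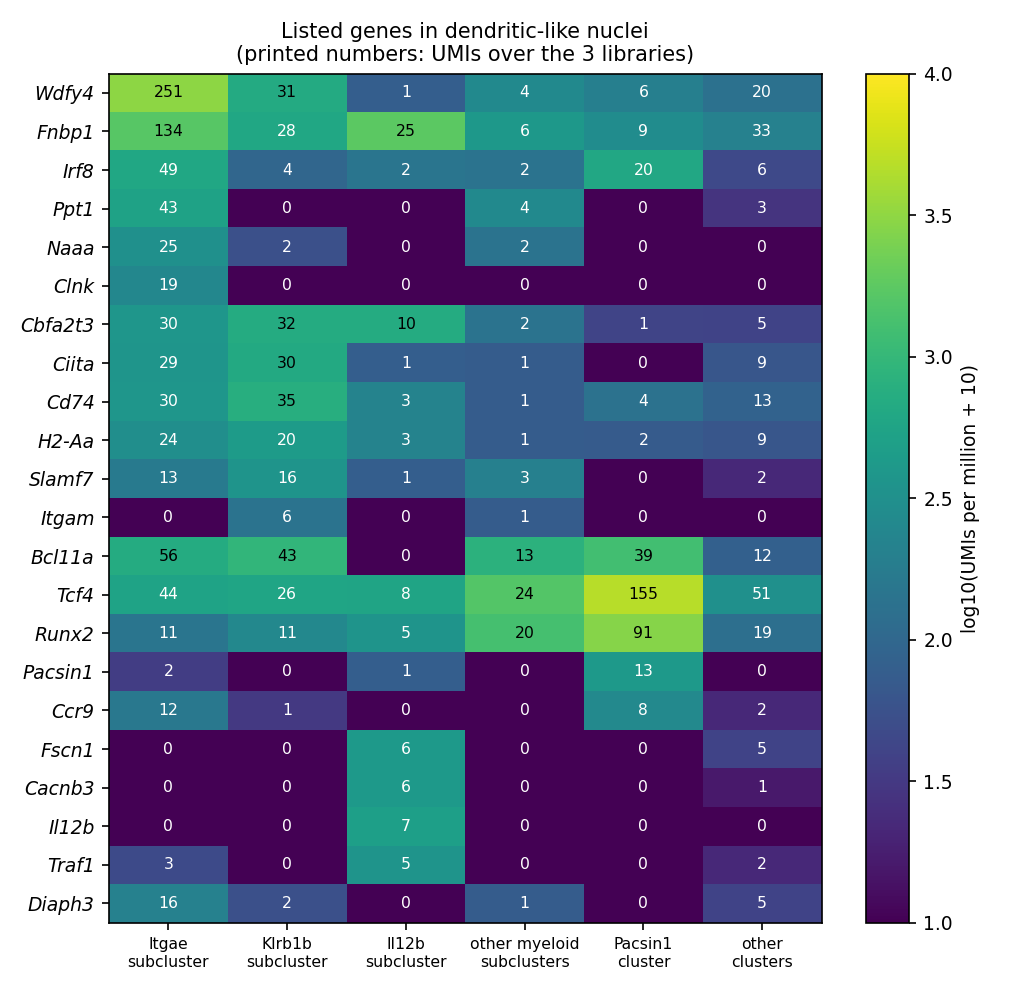
Level of 22 listed genes in dendritic-like nuclei by cluster or subcluster, with color for log10(CPM + 10) and the printed number for the UMIs over the 3 libraries. Wdfy4 (251 UMIs) and Clnk (19) are concentrated in the Itgae subcluster, Tcf4 (155) and Runx2 (91) in the Pacsin1 cluster, and Il12b (7) in the Il12b subcluster.

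MHC class II genes were most abundant in the Itgae, Klrb1b and Il12b subclusters. Of 354 UMIs of the list, 10 lay in the Pacsin1 cluster (310 CPM) and 50 in the other clusters (301 CPM), and the rest in the myeloid cluster. Ciita, the transactivator of these genes, gave 8 UMIs in ND, 43 in STZ-HFHC mouse 1 and 19 in mouse 2, with 29 in the Itgae subcluster, 30 in the Klrb1b subcluster and 0 in the Pacsin1 cluster. Cd74, the invariant chain, gave 7, 71 and 8 UMIs by library. The summed list of 11 genes stood at 996 CPM in all dendritic-like nuclei, against 56.6 CPM in hepatocyte background nuclei.

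The 22 nuclei outside the leading clusters differed from the other 77 in depth and content. Their median was 5890 UMIs, against 1862 in the Itgae subcluster and 1547 in the Pacsin1 cluster. They held 19325 CPM of the hepatocyte genes, the highest of the 6 places, and 1102 CPM of the cDC1 list, the lowest. Of this cDC1 level, 651 CPM was Cadm1. In hepatocyte background nuclei the cDC1 list stood at 814 CPM, with Cadm1 at 597. Ptprc was detected in 12 of the 22 nuclei, and 4 of the 22 met the rule for hepatocyte background. Their MHC class II level was 301 CPM, with 47 UMIs from STZ-HFHC 1, 3 from STZ-HFHC 2 and 0 from ND, and they held 20 UMIs of Wdfy4 and 9 of Ciita. Of these nuclei, 4 came from ND, 12 from STZ-HFHC 1 and 6 from STZ-HFHC 2.

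Dendritic-like nuclei were then compared with 3 other classes of immune nuclei from the same mice, to find which genes set them apart. Monocyte-rule nuclei held at least 2 of 7 monocyte genes, Ccr2 and F13a1 among them, and no Flt3, and numbered 0 in ND, 135 in STZ-HFHC mouse 1 and 54 in mouse 2. Kupffer-rule nuclei (72, 201 and 208) held Clec4f or Timd4 and at least 1 of Vsig4, Cd163, Marco and Folr2. B-rule nuclei (87, 85 and 178) held at least 2 of 7 B cell genes, but only 171 of the 350 lay in the cluster highest in Cd79a, Ms4a1 and Pax5. Kupffer-rule nuclei were also scattered, with 261 of 481 (54.3%) in a cluster that had 15 ND nuclei among 1694. A further 38 lay in a cluster with 232 ND nuclei of 234. The comparison with Kupffer-rule nuclei was not limited to a cluster. Of the 189 monocyte-rule nuclei, 158 lay in the myeloid cluster. UMIs were summed per library and class, and the sums were tested with edgeR's quasi-likelihood test, with the mouse as a block. The 34 genes used to choose the classes were left out. A gene could have enough UMIs to be tested in the sums of 1 class alone, and could then only be called higher in that class. Of 7388 genes tested, 112 were higher in dendritic-like than in monocyte-rule nuclei at an adjusted p under 0.05 (1.52%) and 257 were lower (3.48%), or 4.99% in either direction. Against Kupffer-rule nuclei 204 were higher (2.76%) and 199 lower (2.69%), or 5.45% together, and against B-rule nuclei 251 were higher (3.4%) and 52 lower (0.704%), or 4.1% together. The 3 comparisons share the dendritic-like sums. In all 3 of them, 42 genes were higher (0.568%) and 4 were lower (0.0541%), and 28 of the 42 were higher in every library (0.379%). Without STZ-HFHC 1, the deepest dendritic-like sum at 210768 UMIs, 6 genes were higher in all 3 comparisons (Bcl11a, Cacna1e, Irf8, Runx2, Tcf4 and Wdfy4) and 0 were lower. Without STZ-HFHC 2, 19 of the 42 were still called. Without the block for the mouse, 1 gene was higher in all 3 (Cacna1e) and 0 were lower, and with DESeq2 10 were higher and 0 lower. Against the 171 B-rule nuclei of the B cell cluster alone, a comparison added after seeing the data, 80 of 5756 genes tested were higher (1.39%) and 90 lower (1.56%), and 18 were higher in all 3 comparisons. Below, this is called the comparison with B cell cluster nuclei.

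Wdfy4 was among the most clearly separated genes (chr14:32959547-33185508, minus strand). It gave 15 UMIs in ND, 217 in STZ-HFHC mouse 1 and 81 in mouse 2, which is 443, 1030 and 732 CPM. Its highest level in a sum of the other classes was 191 CPM, in monocyte-rule nuclei of STZ-HFHC 1, so the classes did not overlap. The log2 fold change was 2.43 ± 0.22 (SE) against monocyte-rule nuclei (adjusted p = 4.0e-13), 2.89 ± 0.19 against Kupffer-rule nuclei and 2.67 ± 0.20 against B-rule nuclei. Against B cell cluster nuclei Wdfy4 was still higher, by a smaller 1.12 ± 0.22 (adjusted p = 1.4e-04). The level in hepatocyte background nuclei was 19.1 CPM.

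Bcl11a, a transcription factor needed for plasmacytoid cells and found in precursors of dendritic cells (chr11:24078056-24174123, plus strand), gave 5, 118 and 40 UMIs, or 148, 560 and 361 CPM. The other classes reached at most 140 CPM, in B-rule nuclei of STZ-HFHC 1, and the ND level of Bcl11a was close to this. Its log2 fold change was 2.22 ± 0.27 against monocyte-rule, 3.75 ± 0.26 against Kupffer-rule and 1.92 ± 0.23 against B-rule nuclei (adjusted p = 1.6e-09). B cells also express Bcl11a, a leading gene of their cluster here, and against B cell cluster nuclei the difference was 0.20 ± 0.26 (adjusted p = 0.87). Bcl11a was not confined to 1 place, with 56 UMIs in the Itgae subcluster, 43 in the Klrb1b subcluster, 39 in the Pacsin1 cluster and 0 in the Il12b subcluster.

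Cacna1e, the pore-forming subunit of a voltage-gated calcium channel (chr1:154390731-154884501, minus strand), gave 9, 77 and 23 UMIs, or 266, 365 and 208 CPM. It did not exceed 79.0 CPM in any sum of the other classes. The log2 fold change against B-rule nuclei, the smallest of the 3, was 2.19 ± 0.28 (adjusted p = 1.4e-08). Against B cell cluster nuclei it was 0.55 ± 0.31 and did not pass (adjusted p = 0.56), and Cacna1e was among the leading genes of that cluster. Of its 109 UMIs, 67 lay in the Itgae subcluster and 30 in the Pacsin1 cluster, against 2 in the Klrb1b subcluster. Cacna1e was a leading gene of the Itgae subcluster and of the Pacsin1 cluster, so these places are a description. Against all B-rule nuclei, Cacna1e was the sole gene still called in all 3 comparisons among these 12 when the block for the mouse was dropped.

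Srgap3, a GTPase-activating protein, was even across the mice, with 8, 58 and 23 UMIs, or 236, 275 and 208 CPM. In the other classes it lay between 14.0 and 50.2 CPM. Its log2 fold change was at least 2.98 in the 3 comparisons, the value against Kupffer-rule nuclei (SE 0.30, adjusted p = 4.5e-12). Without STZ-HFHC 1 the smallest of the 3 was 2.11, and Srgap3 was no longer called in all of them.

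Among the genes of lower counts, Ctnnd2, which codes for the adhesion protein delta-catenin, had 26 of its 48 UMIs in the Klrb1b subcluster. A further 13 lay in 3 nuclei of the Itgae subcluster. Ctnnd2 was a leading gene of the Klrb1b subcluster, so its place there restates how that subcluster was described. It gave 2, 31 and 15 UMIs in the 3 mice, and 1, 0 and 0 in B-rule nuclei. Its log2 fold change was 3.79 ± 0.62 against monocyte-rule nuclei (adjusted p = 8.4e-06). Ccser1 lay in the Itgae subcluster with 47 of 51 UMIs, of which STZ-HFHC 1 gave 45 over all places, ND 1 and STZ-HFHC 2 gave 5. Most UMIs of P3h2, a collagen prolyl hydroxylase, were there too, with 32 of 36. Adam19, a metalloprotease of the cell surface, gave 30 of 41 UMIs in that subcluster, and the non-coding Gm36723 gave 64 of 77. Without STZ-HFHC 1 none of these 5 genes was called in all 3 comparisons, with smallest log2 fold changes of 2.78 for Ctnnd2, 2.36 for Ccser1, 1.43 for P3h2, 1.67 for Adam19 and 1.21 for Gm36723. Against B cell cluster nuclei P3h2 (1.5) and Adam19 (0.70) did not pass. Ctnnd2, Ccser1 and P3h2 had enough UMIs to be tested in dendritic-like sums alone. They could thus only be called higher, and their calls are a description.

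Htr7, a serotonin receptor, gave 1, 12 and 6 UMIs, and Kcnip3, a calcium-binding protein, gave 1, 14 and 3. Neither had a UMI in Kupffer-rule nuclei. The level of Htr7 was 33.1-fold and that of Kcnip3 31.4-fold the level that 3 counts over that class would give. Counting error in the dendritic-like nuclei is not included in these ratios. Lrrc1, a scaffold protein of cell polarity, gave 3, 16 and 2 UMIs and was called in all 3 comparisons (adjusted p at most 0.0084). Htr7, Kcnip3 and Lrrc1 had enough UMIs to be tested in dendritic-like sums alone. They could thus only be called higher, and their calls are a description. The counts of these genes are small, and without STZ-HFHC 1 none of these 3 genes had enough UMIs to be tested. With the B cell cluster nuclei in place of all B-rule nuclei, Lrrc1 and Htr7 were no longer called in all 3 comparisons, and Kcnip3 and Ccser1 had too few UMIs to be tested.

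**Figure D4:**
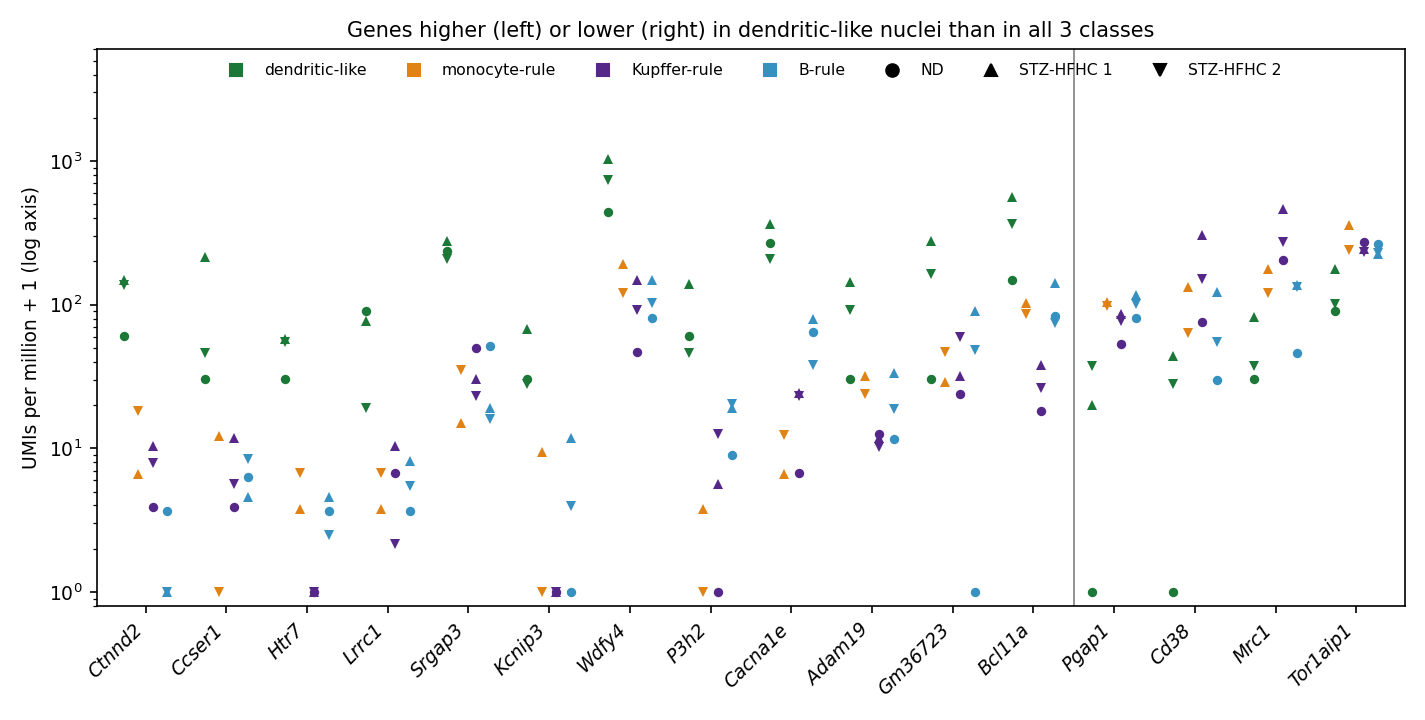
CPM + 1 (log axis) in each library (symbols) and class (colors) for the 12 genes higher in dendritic-like nuclei than in all 3 classes with the largest smallest fold change, and the 4 genes lower. The 12 were chosen as higher in every library, so the choice sets the order of their symbols, and what can be read is the size of the gap: Wdfy4 reaches 1030 CPM in STZ-HFHC 1, against at most 191 CPM in the other classes. A symbol at 1 is a count of 0.

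Genes lower than in all 3 classes were Pgap1, Cd38, Mrc1 and Tor1aip1. Mrc1, the mannose receptor of macrophages and liver endothelium, gave 1, 17 and 4 UMIs, or 29.5, 80.7 and 36.1 CPM, against 205, 462 and 273 CPM in Kupffer-rule nuclei (log2 fold change -2.66 ± 0.29, adjusted p = 8.1e-11). Cd38, an ectoenzyme that consumes NAD, gave 0, 9 and 3 UMIs. Pgap1, which remodels lipid anchors of surface proteins, gave 0, 4 and 4. Tor1aip1, a protein of the inner nuclear membrane, gave 3, 37 and 11 and differed least, with a log2 fold change of -0.84 ± 0.25 against B-rule nuclei. In hepatocyte background nuclei Pgap1, Cd38, Mrc1 and Tor1aip1 stood at 43.1, 22.2, 51.5 and 215 CPM. Dendritic-like levels of Pgap1 (at most 36.1 CPM) and Tor1aip1 (at most 176 CPM) were below this in every mouse. Those of Cd38 and Mrc1 lay on both sides of it. None of these 4 genes was called in all 3 comparisons with DESeq2, without the block for the mouse or without STZ-HFHC 1. The same held with nuclei of the 2 leading clusters only. The smallest log2 fold changes were then -1.26 for Pgap1, -0.92 for Cd38, -0.86 for Mrc1 and -0.59 for Tor1aip1. With 2 partner genes or 2 Flt3 UMIs they were -2.38, -0.88, -1.11 and -0.48 in this order. Of the 4, Pgap1 alone was still called when nuclei with the highest doublet scores were left out.

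In the cDC1 list, the called genes were all higher. Of its 15 genes, 10 were tested, and 6 were higher than in monocyte-rule nuclei, 6 than in Kupffer-rule nuclei and 5 than in B-rule nuclei, with none lower. The median log2 fold changes were 1.17, 2.13 and 2.08, beside -0.0028, -0.049 and -0.049 over all genes tested. For this list and those below, 1.52%, 2.76% and 3.4% of all genes tested were higher against the 3 classes in this order. The shares lower were 3.48%, 2.69% and 0.704%. Against B cell cluster nuclei 1.39% were higher and 1.56% lower. A single call in a list is not read as a trait of the list. Wdfy4, Irf8, Ppt1 and Fnbp1 were higher in all 3. Ppt1 and Fnbp1 were not without STZ-HFHC 1, and Irf8, Ppt1 and Fnbp1 were not without STZ-HFHC 2. Against B cell cluster nuclei 4 of 7 were higher, with a median of 1.39, and Ppt1 did not pass (1.60 ± 0.50, adjusted p = 0.055). Irf8 gave 2, 50 and 31 UMIs, or 59.1, 237 and 280 CPM, and its log2 fold change was 1.62 ± 0.32 against monocyte-rule nuclei (adjusted p = 2.4e-04) and 2.94 ± 0.34 against B-rule nuclei, with 1.75 ± 0.41 against B cell cluster nuclei. Fnbp1, which bends membranes in endocytosis, gave 9, 172 and 54 UMIs and differed by less, with 0.94 ± 0.21 against monocyte-rule nuclei. Naaa, a lysosomal amidase, was higher than in Kupffer-rule and B-rule nuclei, with 1, 23 and 5 UMIs, and its value against monocyte-rule nuclei was 0.33 ± 0.47.

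Most of the tested MHC class II genes were higher than in Kupffer-rule nuclei, and none passed the test as higher against monocyte-rule nuclei. Of 11 genes, 8 were tested, and 5 were higher than in Kupffer-rule and 5 than in B-rule nuclei, with medians of 1.89 and 1.33. Over all genes tested, 2.76% and 3.4% were higher and both medians were -0.049. B cells also express these genes, and against B cell cluster nuclei Ciita alone of 7 was higher (2.11 ± 0.44, adjusted p = 5.5e-04), with a median of 0.27. Against monocyte-rule nuclei none was higher, the median was 0.49 and 1 was lower, Ctss, the protease cathepsin S. Ciita lay at 236, 204 and 172 CPM in the 3 mice, against at most 32.6 CPM in Kupffer-rule nuclei (log2 fold change 3.17 ± 0.33, adjusted p = 8.1e-12) and 174 and 108 CPM in monocyte-rule nuclei of the STZ-HFHC mice (0.41 ± 0.29, adjusted p = 0.56). The alpha chain gene H2-Aa lay at 236, 204 and 72.3 CPM, lowest in STZ-HFHC 2, with 1.13 ± 0.37 against monocyte-rule nuclei (adjusted p = 0.058).

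Of 15 tested genes of the conventional dendritic cell core, 9 were higher than in Kupffer-rule nuclei and 6 than in B-rule nuclei, while against monocyte-rule nuclei Bcl11a was higher and Spi1, which codes for the myeloid factor PU.1, was lower. Median log2 fold changes were 1.11, 0.83 and 0.48 in this order. Against B cell cluster nuclei 2 of 13 were higher, Cbfa2t3 and Plbd1, and Btla was lower. Cbfa2t3, a transcriptional corepressor, stood at 355, 242 and 154 CPM in the dendritic-like nuclei and at no more than 16.2 CPM in Kupffer-rule nuclei (log2 fold change 3.96 ± 0.35, adjusted p = 3.0e-14). In monocyte-rule nuclei it stood at 129 and 91.2 CPM, and that difference did not pass (0.89 ± 0.31, adjusted p = 0.088). Itgax, the gene of the integrin CD11c, was sparse, with 1, 7 and 5 UMIs.

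Plasmacytoid genes went in both directions. Of 10 tested, 4 were higher than in each of the classes, and Tcf4, Runx2 and Ccr9 were higher in all 3. Ccr9 lost this call without STZ-HFHC 1, and Tcf4 and Ccr9 lost it without STZ-HFHC 2. Against B cell cluster nuclei Runx2 (3.87 ± 0.44) and Tcf4 (0.85 ± 0.21) were higher and Ccr9 did not pass (1.97 ± 0.94, adjusted p = 0.42). Tcf4 stood at 502, 873 and 967 CPM, with log2 fold changes of 1.14 ± 0.20, 1.04 ± 0.17 and 1.10 ± 0.18 against monocyte-rule, Kupffer-rule and B-rule nuclei. Runx2 gave 4, 114 and 39 UMIs, and its log2 fold change was 1.61 ± 0.27 against monocyte-rule nuclei and 3.05 ± 0.29 against B-rule nuclei. Ccr9, a chemokine receptor of plasmacytoid cells, gave 0, 15 and 8 UMIs, of which 12 lay in the Itgae subcluster and 8 in the Pacsin1 cluster. Zeb2 was lower than in monocyte-rule nuclei by 1.93 ± 0.21 and higher than in B-rule nuclei by 0.95 ± 0.20 on the log2 scale. It was also lower than in Kupffer-rule nuclei, and against B cell cluster nuclei it did not pass (0.55 ± 0.24, adjusted p = 0.31). Tlr7 was also lower than in monocyte-rule nuclei.

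In the cDC2 list, most called genes were lower than in monocyte-rule nuclei, and most were higher than in the other classes. Of 7 genes tested, 4 were lower than in monocyte-rule nuclei (Tnip3, Itgam, Sirpa and Cd300a) and 1 was higher, with a median log2 fold change of -1.65. Against Kupffer-rule nuclei 3 were higher and 1 lower (median 0.76), and against B-rule nuclei 2 were higher and none lower (median 1.31). Several of these genes are also expressed by monocytes. Sirpa gave 0, 24 and 10 UMIs and lay at 396 and 222 CPM in monocyte-rule nuclei of the STZ-HFHC mice, against 114 and 90.4 CPM in dendritic-like nuclei (-1.74 ± 0.29, adjusted p = 1.3e-05). Slamf7, a receptor of the SLAM family, was higher in all 3 comparisons, with 4, 29 and 2 UMIs, but not when any 1 of the mice was left out. It was most abundant in the Klrb1b subcluster, with 16 UMIs, followed by the Itgae subcluster with 13.

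In the list of the Flt3 pathway, 13 of 16 genes were tested. Kit, a receptor tyrosine kinase of the same family as Flt3, was higher in all 3 comparisons, with 0, 15 and 9 UMIs and a log2 fold change of 2.91 ± 0.73 against monocyte-rule nuclei (adjusted p = 0.0071), but did not pass against B cell cluster nuclei (1.57 ± 0.90, adjusted p = 0.57). Kit was not called in all 3 without STZ-HFHC 1 or without STZ-HFHC 2. Csf1r, another receptor of this family and the receptor of macrophage growth factors, was lower than in monocyte-rule nuclei by 2.64 ± 0.48 and lower than in Kupffer-rule nuclei by 2.16 ± 0.46 on the log2 scale, with 2, 5 and 1 UMIs. Signalling genes of the list were abundant, led by the adaptor Gab2 with 6, 135 and 63 UMIs. Gab2 was lower than in monocyte-rule nuclei and higher than in B-rule nuclei. The medians of the list were -0.25, -0.0072 and 0.50.

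Mature dendritic cell genes were tested for 7 of 18, and none was called against monocyte-rule nuclei. Traf1 and Birc3, both regulators of signalling by tumor necrosis factor receptors, were higher than in Kupffer-rule nuclei, and Cd86, a costimulatory molecule, and Birc3 were higher than in B-rule nuclei. None of 3 mature genes tested was called against B cell cluster nuclei. Birc3 gave 1, 43 and 9 UMIs. For Toll-like receptors and their signalling, 4 of 14 genes were tested and Irf5 was higher than in B-rule nuclei. Of 18 cytokine and chemokine genes, 4 were tested, and Tgfb1 was lower than in monocyte-rule and Il15 lower than in Kupffer-rule nuclei. Interferon-stimulated genes were tested for 7 of 15, and Oasl2 alone was called, lower than in monocyte-rule nuclei.

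Genes of dividing cells were seen in the STZ-HFHC mice, with 0 UMIs of the 12 listed genes in ND, 51 in STZ-HFHC mouse 1 and 21 in mouse 2. In ND, 3 counts of 33847 UMIs, or 88.6 CPM, is the level that a count of 0 allows, and the STZ-HFHC levels were 242 and 190 CPM. Of the 72 UMIs, 39 lay in the Itgae subcluster, 26 in the other clusters and 0 in the Pacsin1 cluster. ND had 5172 UMIs of all genes in the Itgae subcluster, where 3 counts are 580 CPM. Whether the mice differed within that subcluster cannot be told from a count of 0 there. Diaph3, a formin that acts in cell division, was the sole gene tested and was higher than in Kupffer-rule and B-rule nuclei (2.06 ± 0.52 and 2.13 ± 0.57 on the log2 scale). It was not called against monocyte-rule nuclei (1.70 ± 0.59, adjusted p = 0.082) or B cell cluster nuclei (0.86).

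Markers of other cell types were measured beside these results. Of 16 tested genes of monocytes and macrophages, none was higher in any comparison, 5 were lower than in monocyte-rule nuclei, Lyz2 and Csf1r among them, and 9 were lower than in Kupffer-rule nuclei. The summed level of this list in dendritic-like nuclei was 2068 CPM in ND, 1618 in STZ-HFHC mouse 1 and 1048 in mouse 2, led by Apoe, which hepatocytes also express. Of the T, NK and innate lymphoid list, Cd3e and Cd3g had 0 UMIs, and the most abundant gene, Themis, gave 60 UMIs, of which 42 lay in the other clusters. Themis was also a leading gene of a cluster of 2968 nuclei, beside Abcg8 and Slc28a1. Its UMIs are thus not read as T cell transcripts here. Ighm, the heavy chain of IgM, gave 2, 8 and 2 UMIs and was higher than in monocyte-rule and Kupffer-rule nuclei and lower than in B cell cluster nuclei, with 5 of 12 UMIs in the Pacsin1 cluster. Ighd and Blk were lower than in B-rule nuclei. None of 12 hepatocyte genes was called against monocyte-rule or Kupffer-rule nuclei, and Serpina1e was higher than in B-rule nuclei. In the endothelial list, Mrc1 was lower in all 3 comparisons and Cdh5 was lower than in Kupffer-rule nuclei. No stellate or fibroblast gene was called, and of neutrophil and mast cell genes Csf3r was lower than in monocyte-rule and Kupffer-rule nuclei.

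Dendritic-like nuclei of the STZ-HFHC mice were set beside those of the ND mouse by a rule of size and not by a test, since ND had 1 mouse. A gene passed with at least 20 UMIs over the 3 libraries and a log2 ratio past 1.5 on 1 side of 0 for each of the STZ-HFHC mice, with 0.5 added to each count. Of 3929 genes, 310 were higher (7.89%) and 91 lower (2.32%) in STZ-HFHC. The ND sum was 33847 UMIs from 10 nuclei, and 217 of the 310 genes had no UMI in it. The 4 ND nuclei outside the leading clusters gave 70.7% of these UMIs, and such nuclei gave 44.3% in STZ-HFHC mouse 1 and 44.0% in mouse 2, so the sums also differ in where their nuclei lay. With nuclei of both leading clusters only, 209 genes were higher and 60 lower. With 1 added to each count in place of 0.5, 134 were higher, with at least 50 UMIs 97 were higher and 29 lower, and without STZ-HFHC mouse 1 or mouse 2 the lower genes numbered 230 and 202. In hepatocyte background nuclei, 264 of the 310 and 84 of the 91 differed in the same direction in both mice, 55 (17.7%) and 23 (25.3%) of them by as much. Of the 3528 genes that did not pass the rule, 2160 were higher (61.2%) and 803 lower (22.8%) in these background nuclei of both mice, 97 (2.75%) and 7 (0.198%) by as much.

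The genes with the largest ratios are named next, and hepatocyte background levels are given for Cd36, Zswim6 and Bhmt only. Higher in STZ-HFHC were Zswim6, Gm19619, Cd36, Abcg5 and Rtn4, all with 0 UMIs in the ND nuclei. The ND side of their ratios thus rests on the 0.5 added to each count. Cd36, a fatty acid transporter, gave 83 and 24 UMIs. These levels were 4.44-fold and 2.45-fold what 3 counts in ND would give, with counting error in the STZ-HFHC mice not included. In hepatocyte background nuclei Cd36 lay at 20.7 CPM in ND, 319 CPM in STZ-HFHC mouse 1 and 210 CPM in mouse 2. Abcg5, a sterol transporter of hepatocytes, gave 43 and 51 UMIs, of which 63.8% over the 3 libraries lay in the 22 nuclei of the other clusters. Zswim6, the first by this order, gave 71 and 39 UMIs and lay at 103, 224 and 189 CPM in the hepatocyte background. Its difference in the background was smaller than the rule of size asks. Rtn4, a protein of the endoplasmic reticulum, gave 77 and 22 UMIs. Lower in STZ-HFHC were Gm15622, Bhmt, Apoa1, Mup3 and BC028777. Bhmt, a hepatocyte enzyme of methionine metabolism, gave 171 UMIs in ND, 34 in STZ-HFHC mouse 1 and 13 in mouse 2, or 5052, 161 and 117 CPM, and lay at 5086, 156 and 241 CPM in hepatocyte background nuclei. Apoa1, the main protein of high-density lipoprotein, gave 45, 17 and 11 UMIs, with 75.3% in the other clusters.

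**Figure D5:**
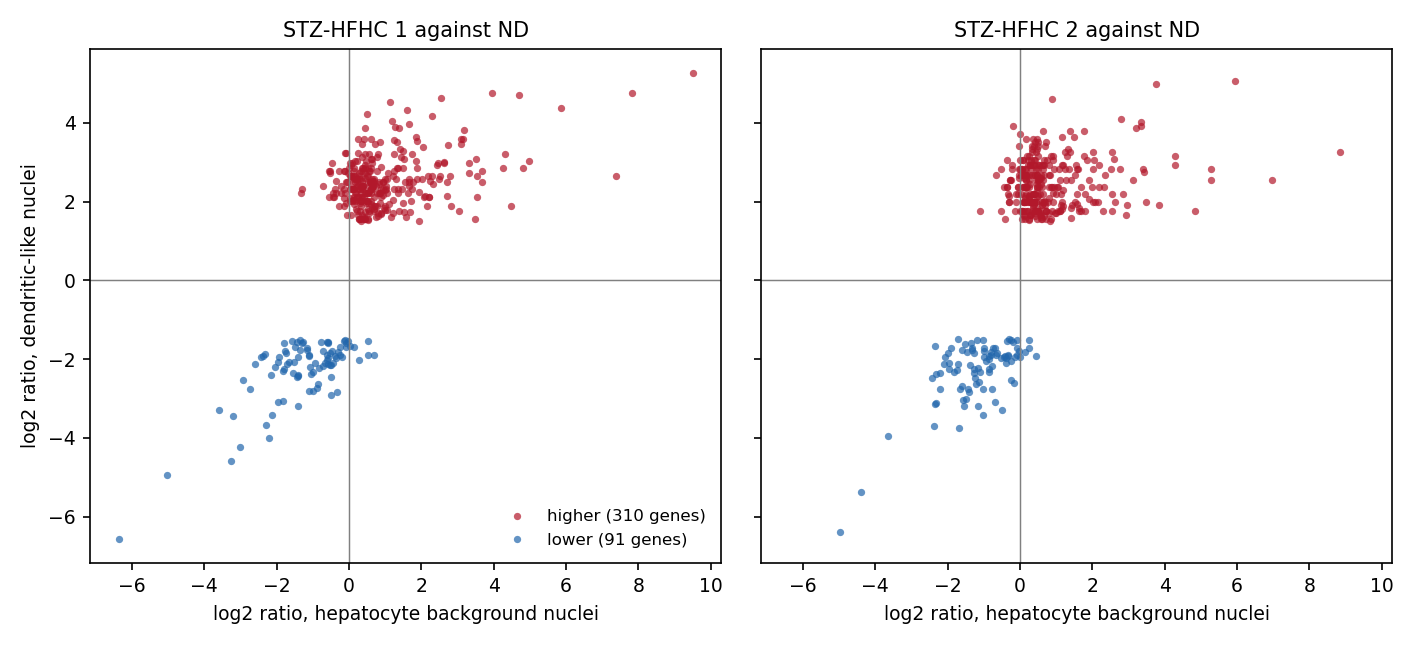
Log2 ratio of STZ-HFHC to ND in dendritic-like nuclei (vertical axis) against the same ratio in hepatocyte background nuclei (horizontal axis), with a point per gene that passed the rule of size, 310 higher and 91 lower, and a panel per STZ-HFHC mouse. Of the genes shown, 264 higher and 84 lower ones lie on the same side of 0 on the horizontal axis in both mice; the panels share the ND libraries, and the empty band around 0 on the vertical axis is set by the rule.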

How the data were processed

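Each library was deposited by the authors as a matrix of raw, unnormalized UMI counts, with Cell Ranger 7.0.1 and mm10 named in the submitters' processing notes; how intronic reads were counted is not given in the sources used here. Nuclei came from frozen liver, and the number of nuclei that the paper gives after its limits equals the 30989 barcodes deposited. Here barcodes with 200 to 5000 genes and at most 5% mitochondrial UMIs were kept. Levels (CPM) are UMIs of the summed nuclei scaled to 1000000. Intervals are 95% and cover counting error only.

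The selection, the gene lists and the comparisons were chosen with earlier results of these data known. UMI sums per library and class of at least 10 nuclei were fitted in 1 model of 11 sums with edgeR 4.0.16 (TMM, filterByExpr with min.count 10, glmQLFit and glmQLFTest, the mouse as a block, Benjamini-Hochberg adjustment over 7388 genes). SE is the log2 fold change over the root of F. DESeq2 1.42.0 was an alternative. On simulated sums, 100 genes were changed 4-fold and 100 were changed 2-fold. Against monocyte-rule nuclei 94 and 16 of them were called, with 8 false calls over the 6852 genes tested. The changed genes were drawn from those with many UMIs, and the sums had 1 fixed spread and no other difference between classes or mice. These rates thus do not hold for named genes with few UMIs. A test between cDC1, cDC2 and plasmacytoid nuclei was not made, since no subset had 2 sums of at least 10 nuclei, the limit set here. Named genes were those of the lists with most UMIs or the largest fold, the 12 genes higher and up to 6 lower than in all 3 classes and in every library with the largest smallest fold, and the first 5 per direction under the rule of size. Clustering used Scanpy 1.11.5 (2000 variable genes, 30 components, Leiden resolution 1; 1000 genes, 20 components and resolution 0.5 in the second round, added after the first was seen). The automatic threshold of Scrublet marked 0, 3 and 1 nuclei and did not work, so the highest 8% of scores were set apart. The genes Mx1 and Mx2 were not found under these symbols. Coordinates are from GENCODE M21. The full list of genes behind the hepatocyte background is not reported here.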

Additional observations from a re-analysis of the deposited data

Results flagged for a closer look

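In the ND mouse, the monocyte and macrophage list was slightly higher in dendritic-like than in Kupffer-rule nuclei, with a log2 ratio of 0.052 (2068 against 1995 CPM), and it was lower in both STZ-HFHC mice, with -1.62 (1618 against 4982 CPM) and -1.42 (1048 against 2797 CPM). Interferon-stimulated genes went the same way, with a log2 ratio of 0.22 in ND (325 against 280 CPM) and -0.24 and -0.35 in the STZ-HFHC mice (403 against 477 CPM and 343 against 437 CPM). They were singled out because the ND mouse lay on the other side of 0 than both STZ-HFHC mice. The difference was not tested, ND had 1 mouse, and its dendritic-like sum came from 10 nuclei. Of its UMIs, 70.7% came from the 4 nuclei outside the leading clusters, against 44.3% and 44.0% in the STZ-HFHC mice, and 53 of the 70 UMIs of the monocyte and macrophage list in ND were of Apoe, which hepatocytes express. In dendritic-like nuclei of the myeloid cluster alone this list stood at 1292 CPM in ND and at 1890 and 1313 CPM in the STZ-HFHC mice. Of the Kupffer-rule nuclei, 261 of 481 lay in a cluster with 15 ND nuclei among 1694, although 72 Kupffer-rule nuclei came from ND. The part that the places of the nuclei of both classes had in the difference was not tested.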

How the results depend on the processing

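Of 151 values of the 16 named genes under other settings, 87 were still called in all 3 comparisons, 64 were not and 0 reversed; the cause was not tested. Among all genes called, 21 of 287 changed direction against the B-rule nuclei of the B cell cluster, 6 of 358 against monocyte-rule nuclei without STZ-HFHC 1 and 8 of 367 against monocyte-rule nuclei with 2 partner genes or 2 Flt3 UMIs; no other setting turned more than 4 in a comparison. The counts below are genes higher and lower against monocyte-rule, Kupffer-rule and B-rule nuclei, then in all 3. With DESeq2 they were 24 and 124 against monocyte-rule nuclei, 83 lower against Kupffer-rule, 13 lower against B-rule, and 10 and 0 in all 3 (21 lower at an unadjusted p under 0.05, against 57 by edgeR). The replicate numbers of ND and STZ-HFHC pair no mice, and the classes are paired by mouse, which is the block of the test. With no replicate block for the mouse, edgeR gave 1 and 4, 25 and 0 (221 lower at an unadjusted p under 0.05), 26 and 1, and 1 and 0 in all 3 (28 lower at an unadjusted p under 0.05). With no filter on low counts, 104 were lower against B-rule nuclei. Requiring 2 partner genes or 2 Flt3 UMIs left only the STZ-HFHC 1 sum of dendritic-like nuclei and gave 101 and 122 lower against monocyte-rule and Kupffer-rule nuclei and 2 lower in all 3, with that sum taken to vary like the others. Using the nuclei of the 2 leading clusters only left no ND sum and was chosen after seeing the data. It gave 106 lower against monocyte-rule, 331 higher against Kupffer-rule, 449 and 230 against B-rule nuclei, and 88 and 8 in all 3. Pgap1, Cd38, Mrc1 and Tor1aip1 were not among these 8. With the B-rule nuclei of the B cell cluster only, also chosen after seeing the data, 80 and 90 were called against B-rule nuclei and 18 were higher in all 3.

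Leaving out each mouse in turn gave 13 to 119 and 55 to 266 genes against monocyte-rule, 59 to 190 and 55 to 194 against Kupffer-rule, 72 to 227 and 16 to 42 against B-rule nuclei, and 6 to 38 and 0 to 3 in all 3, the lowest without STZ-HFHC 1 (88 lower in all 3 at an unadjusted p under 0.05); where 1 monocyte-rule sum was left, it was taken to vary like the others.

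The mean ratio of the share in STZ-HFHC to ND was 7.12 with nuclei thinned to 1000 UMIs, and 2.41 to 5.52 with either STZ-HFHC mouse left out. It was 16.6 (SD 16.9) with at least 2 partner genes and 8.22 (SD 7.23) with at least 2 Flt3 UMIs. Each of these last 2 ratios rests on 1 ND nucleus. The share itself was 0.0253%, 0.234% and 0.127% after thinning, 0.0118%, 0.336% and 0.0549% with 2 partner genes, and 0.0118%, 0.157% and 0.0366% with 2 Flt3 UMIs, in the order ND, STZ-HFHC 1 and STZ-HFHC 2. Under the rule of size, 134 genes were higher in STZ-HFHC with 1 added, 229 lower with at least 10 UMIs, 97 higher and 29 lower with at least 50, and 60 lower in the 2 leading clusters only. With either STZ-HFHC mouse left out, 396 to 451 were higher and 202 to 230 lower. The test between subsets was not made, so it has no value to compare between settings. Depth limits these results most in ND, where a count of 0 among the 33847 UMIs of 10 nuclei allows a level of up to 88.6 CPM.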
